A study of Sus scrofa with 8 samples.

Results

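Type I interferon-stimulated genes were followed in the liver of pigs before and after a steatotic diet. The members were 37 genes chosen by symbol, of which 36 were found by that symbol among the 18103 genes and new transcripts of the expression table. Only IFIT5 was missing as a symbol. Its values are given from the row that the table describes as this gene. Hepatic RNA came from male Landrace x Large White pigs and was sequenced in 8 libraries, each a pool of 2 pigs. The 4 control libraries, called initial here, are livers labelled healthy from pigs aged 4 months on a control diet, taken by biopsy under anaesthesia. The 4 steatosis libraries are livers of the same animals at 6 months, taken after euthanasia, when they had eaten for 2 months a diet high in saturated fat, fructose, cholesterol and cholate and poor in methionine and choline. Age and the way of sampling therefore changed together with the diet, and their effects cannot be told apart. A replicate is a pool, so each SD is between pools of 2 pigs, and a pig that stood apart could not be told from its partner. In bulk liver RNA, fewer cells of a type and less RNA per cell cannot be told apart either.

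Type I interferons are secreted by cells that sense foreign or misplaced nucleic acids. They bind the IFNAR1 and IFNAR2 receptor chains, whose kinases JAK1 and TYK2 phosphorylate STAT2. It joins IRF9 in a complex that enters the nucleus and switches on the interferon-stimulated genes, most of which act against viruses at some step of their cycle. Several of the factors and sensors of the pathway are themselves among the induced genes, and hepatocytes and liver macrophages can both respond.

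Expression is given in FPKM, fragments scaled by transcript length and by the mapped fragments of the library, so that levels can be compared between genes. All 36 members passed the limit on low values of at least 0.3 FPKM in at least 4 libraries, and 35 of them had at least 1 FPKM in every library, the exception being OASL. Steatosis was set against the initial state by limma, using log2(FPKM + 0.1) of the 13175 genes past that limit, and fold changes are on this log2 scale. A call of differential expression needed a log2 fold change beyond 1 together with an adjusted p below 0.01. A gene is said to rise or fall below when its adjusted p was under 0.05.

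With all 8 libraries, none of the 36 members was called, while 6.01% of all genes tested were called higher in steatosis and 0.334% lower. At an adjusted p under 0.05, 7 members rose (IFI6, IRF9, IRF1, IFI35, MX2, PARP14 and ISG20) and none fell, against 26.7% of all genes higher and 2.28% lower. An unadjusted p under 0.05 was reached by 10 of the 36 members. The share of all genes was not taken at this limit. It cannot be below the 26.7% higher and 2.28% lower, because an adjusted p is never below the unadjusted one. This count therefore does not set the members apart from all genes. The fold change was above 0 for 34 of the 36, where 78.7% of all genes had one above 0. The members' median log2 fold change was 0.59, against 0.25 for all genes tested. With the pool number as a block, IFI6 was called (5.96% of all genes were called higher) and 16 members rose (25.7%).

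**Figure D1:**
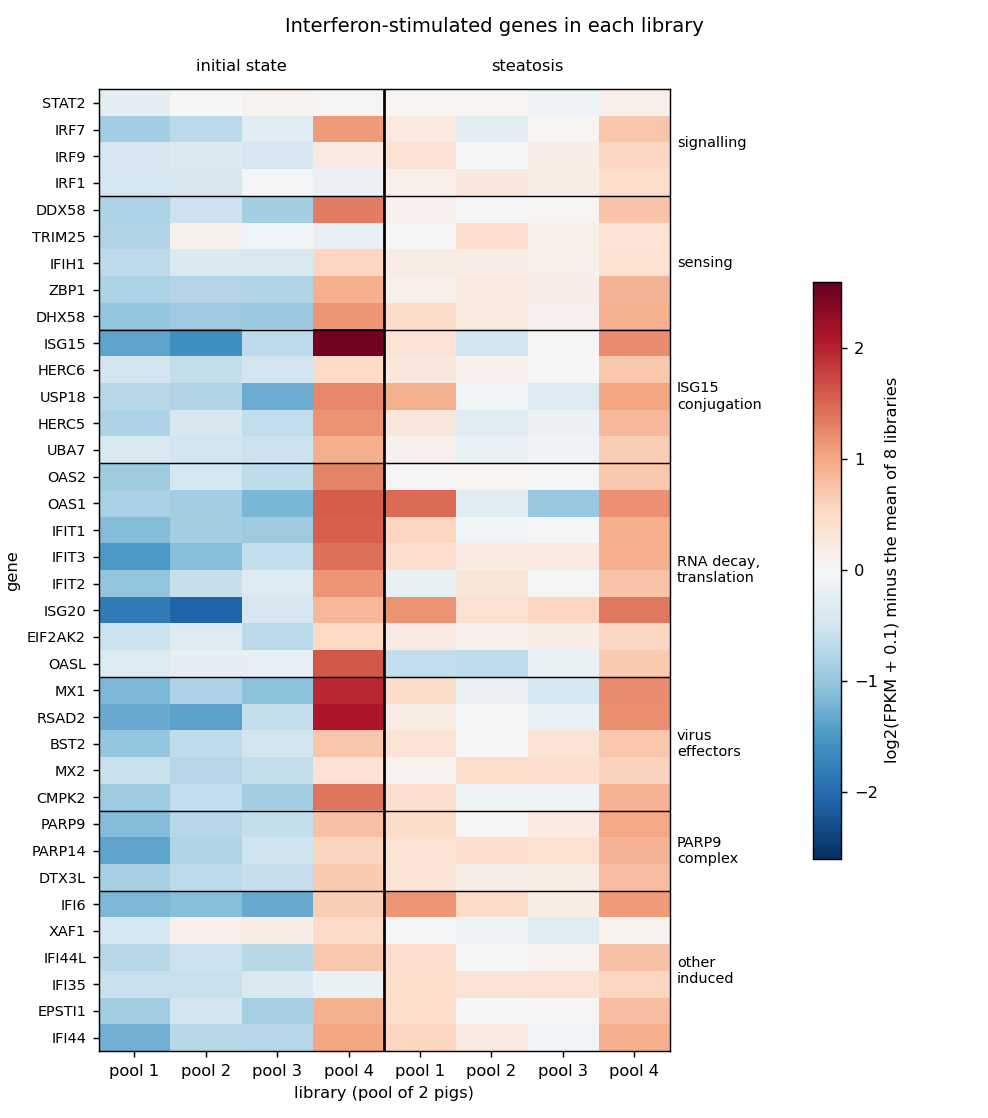
Each row is a member and each column a library; the colour is log2(FPKM + 0.1) minus the gene's mean over the 8 libraries. Pool 4 of the initial state is red in most rows beside 3 blue initial pools, with a median deviation of 0.94 against -0.85, -0.65 and -0.62, and the steatosis pools lie between 0.04 and 0.78.

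The members' levels set a single initial library apart. Over the 36 members the summed level was 675, 773 and 748 FPKM in initial pools 1, 2 and 3, and 2567 FPKM in initial pool 4. In steatosis the sums were 2256, 1573, 1378 and 2519 FPKM. Pool 4 was thus the highest of the initial pools and the highest of the steatosis pools, and the 4 pools of steatosis lay above initial pools 1 to 3 but not above initial pool 4. Initial pool 4 was the highest initial library for 33 of the 36 members, where this held for 12.3% of all genes. It was at least 2 times the next initial pool for 27 members and at least 3 times for 16. The smaller of these folds was found for 84 of all genes tested, 0.638%. The 27 members were 32.1% of these 84 genes, and another 10 were further interferon-stimulated genes. For 22 members the value in initial pool 4 was above all 4 steatosis pools. The share over all genes was not taken for this count or for the larger fold, so neither can be set against it. Steatosis pool 4 was the highest of its group for 33 members, against 26.1% of all genes. High levels of these genes in pool 4 of both groups were already known when the members were chosen. The counts for pool 4 therefore describe these libraries and are no independent support.

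Because initial pool 4 stood apart, each comparison is also given without it. The library was singled out for the levels of these very genes, so the values without it are a description of the other 7 libraries. In that comparison 13 members were called (IFI6, IFIT1, IFIT3, BST2, MX2, EPSTI1, PARP9, PARP14, DTX3L, IFI44, ZBP1, DHX58 and ISG20), where 5.42% of all genes were called higher, and 30 members rose, against 23.7% of all genes. The median log2 fold change of the members was 1.05, against 0.20 over all genes. Without pool 4 of both groups, 6 members were called (IFI6, IFIT1, IFIT3, PARP9, PARP14 and DHX58, all among the 13), against 4.1% of all genes, and 27 rose, against 16.7%. The median was then 0.91, against 0.19, and with the block as well 3 members were called (3.64%) and 28 rose (17%). Leaving out any other single library gave no called member, where 4.74% to 5.91% of all genes were called higher and 17.6% to 25.7% rose. The number of members that rose was then 2 without initial pool 1, initial pool 3 or steatosis pool 4, 3 without initial pool 2, steatosis pool 1 or steatosis pool 3, and 4 without steatosis pool 2. IRF1 and IFI35 rose in each of these comparisons. The 7 members that rose with all libraries also rose without initial pool 4, without pool 4 of both groups and with the block.

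**Figure D2:**
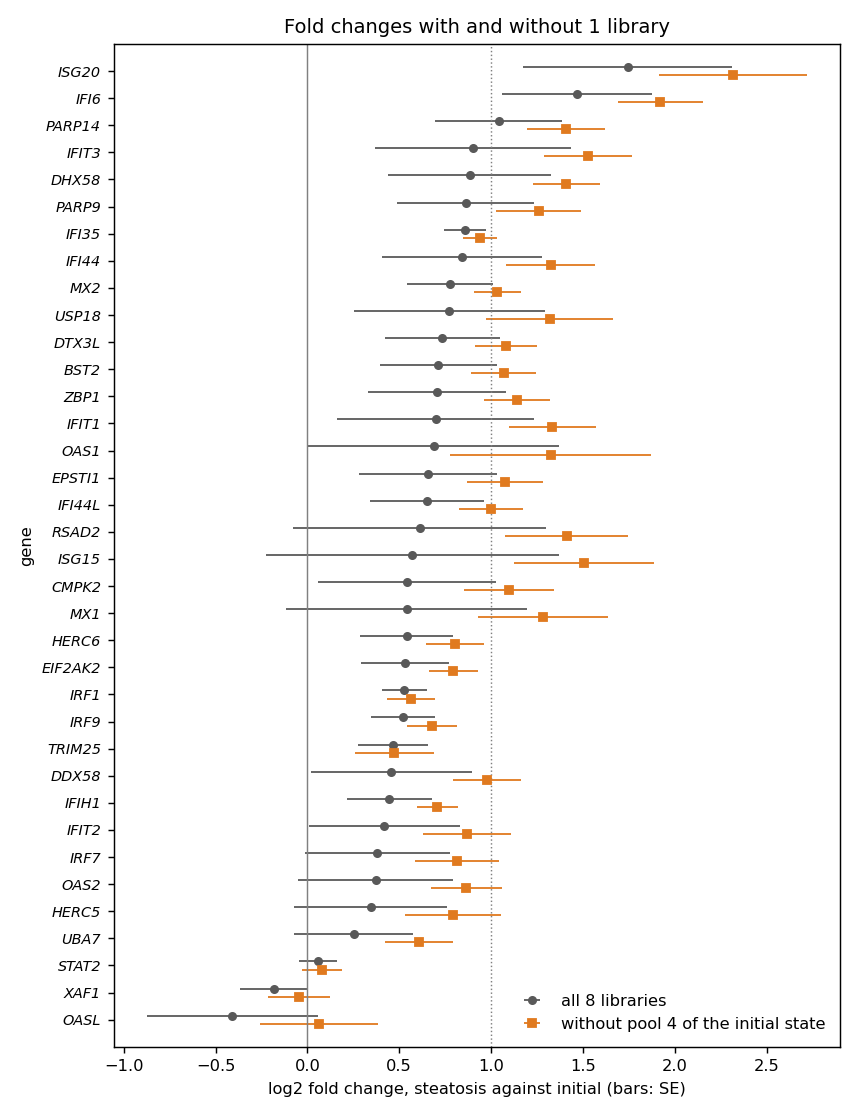
Log2 fold change of each member in steatosis against the initial state with its standard error, from all 8 libraries (circles) and without initial pool 4 (squares). Most squares lie to the right of their circles with shorter bars: ISG15 moved from 0.57 to 1.51, whereas IFI35, IRF1, TRIM25 and STAT2 hardly moved.

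The scaling between libraries also bore on these values. Scaling by the median ratio, in which a library is divided by the median of its gene-wise ratios to an average library, brought the median log2 fold change of all genes from 0.25 to -0.01 and that of the members from 0.59 to 0.32. With this scaling no member was called (3.12% of all genes were called higher) and 1, IFI35, rose (11.7%). Scaling by the upper quartile gave no called member either (3.33%), and the same gene rose (12.7%). The median ratio was lowest in initial pool 4 (0.807, against 0.907 to 1.11 in the other libraries), in which ALB, the main plasma protein made by hepatocytes, took 71003 FPKM against 41268 to 45743 in the other initial pools. With this scaling and without initial pool 4, 4 members were called (3.06%) and 24 rose (12.3%), with a median of 0.84 against -0.01.

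Among the 4 members that carry the signal, initial pool 4 was the highest initial pool for 2, IRF7 and IRF9. Of these 4 signalling and transcription members, IRF1 and IRF9 rose, STAT2 and IRF7 did not pass the limit, and none was called. STAT2 (chr5:21733030-21748960, Sscrofa11.1 as all positions here), which IRF9 joins in the interferon complex, had 61.6, 74.7, 79.2 and 75.7 FPKM in initial pools 1 to 4 and 76.4, 77.0, 68.2 and 80.7 FPKM in steatosis. The groups overlapped and initial pool 4 was not the highest. The difference was 0.06 (SE 0.10, adjusted p = 0.697), and it was -0.22 with scaling by the median ratio. IRF9 (chr7:75133800-75139641), the DNA-binding subunit of that complex, had 12.7, 13.2, 12.6 and 19.9 FPKM in the initial state and 22.3, 16.8, 19.2 and 25.0 FPKM in steatosis. Only initial pool 4 reached the range of steatosis, and the rise of 0.52 (SE 0.17) passed narrowly at an adjusted p of 0.0491.

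IRF1 (chr2:134776122-134783646), a transcription factor induced by both type I and type II interferon, had 10.6, 11.0, 14.4 and 13.1 FPKM in the initial state, and in steatosis it had 16.1, 17.7, 16.7 and 20.03 FPKM. The groups did not overlap, which was so for 2 of the 36 members and for 29.6% of all genes with steatosis higher (2.53% with steatosis lower). It rose by 0.53 (SE 0.12, adjusted p = 0.0117). IRF7 (chr2:372235-375572), the factor that amplifies interferon production, had 9.55, 10.9, 14.4 and 38.5 FPKM in the initial state and 21.1, 14.7, 18.4 and 29.0 FPKM in steatosis. Initial pool 4 held the highest value of all 8 libraries, and the difference of 0.38 (SE 0.39) had an adjusted p of 0.493. Without that pool IRF7 rose by 0.82 (SE 0.23, adjusted p = 0.0319).

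The 5 members that sense RNA or DNA had log2 fold changes from 0.44 to 0.88, and none rose. DDX58 (chr10:33891720-33976151), which encodes the cytosolic RNA sensor RIG-I, had 10.5, 12.6, 10.04 and 46.9 FPKM in the initial state and 20.1, 18.5, 19.3 and 31.0 FPKM in steatosis. Pool 4 was apart from its group in both states, and initial pool 4 was 3.71 times the next initial pool. The difference was 0.46 (SE 0.44, adjusted p = 0.458) with all libraries and 0.98 (SE 0.19, adjusted p = 0.00672) without initial pool 4. TRIM25 (chr12:33184039-33212440), the ubiquitin ligase that activates RIG-I, had 6.74, 12.9, 11.07 and 10.1 FPKM in the initial state and 11.8, 15.9, 12.8 and 15 FPKM in steatosis. It was among the 3 members for which initial pool 4 was not the highest initial pool. Its difference of 0.47 (SE 0.19, adjusted p = 0.0914) passed the limit with the pool number as a block (adjusted p = 0.0329). Of the other sensors, DHX58, which encodes the RIG-I relative LGP2, and ZBP1, a sensor of Z-form nucleic acids, were called without initial pool 4 and rose with the block (adjusted p = 0.0418 and 0.0324). IFIH1, which encodes the RNA sensor MDA5, rose without it.

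ISG15 encodes a ubiquitin-like protein that UBA7 activates, HERC5 or HERC6, depending on the species, attaches to target proteins and USP18 removes. None of the 5 members of this system rose with all libraries, and their log2 fold changes lay between 0.25 and 0.77. The study measured ISG15 also by RT-qPCR, and the primer pair is shown here, 5′ to 3′, because it identifies the transcript with the most divergent library.
ISG15 sense primer: ggtgaggaacgacaagggtc
ISG15 antisense primer: ggcttgaggtcatactcccc

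ISG15 (chr6:63363201-63364211) had 13.2, 11.3, 21.3 and 197 FPKM in the initial state, and in steatosis it had 44.2, 24.6, 35.4 and 80.6 FPKM. The 4 steatosis pools lay above initial pools 1 to 3, and initial pool 4 lay above all of them at 9.26 times the next initial pool, the largest such ratio among the members. The initial mean was therefore the higher one, 60.8 FPKM (SD 91.1, n = 4) against 46.2 FPKM (SD 24.3, n = 4), while the fold change on the log2 scale was 0.57 (SE 0.80, adjusted p = 0.617). Without initial pool 4 the fold change was 1.51 (SE 0.38, adjusted p = 0.0213). HERC6 (chr8:130594941-130665591) had 8.81, 8.12, 8.84 and 17.95 FPKM in the initial state and 15.2, 13.5, 12.4 and 20.2 FPKM in steatosis. The overlap came from initial pool 4 alone, and the difference of 0.54 (SE 0.25, adjusted p = 0.132) passed the limit with the block (adjusted p = 0.0205). Without initial pool 4, ISG15, HERC6, USP18 and UBA7 rose, and HERC5 had an adjusted p of 0.055.

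**Figure D3:**
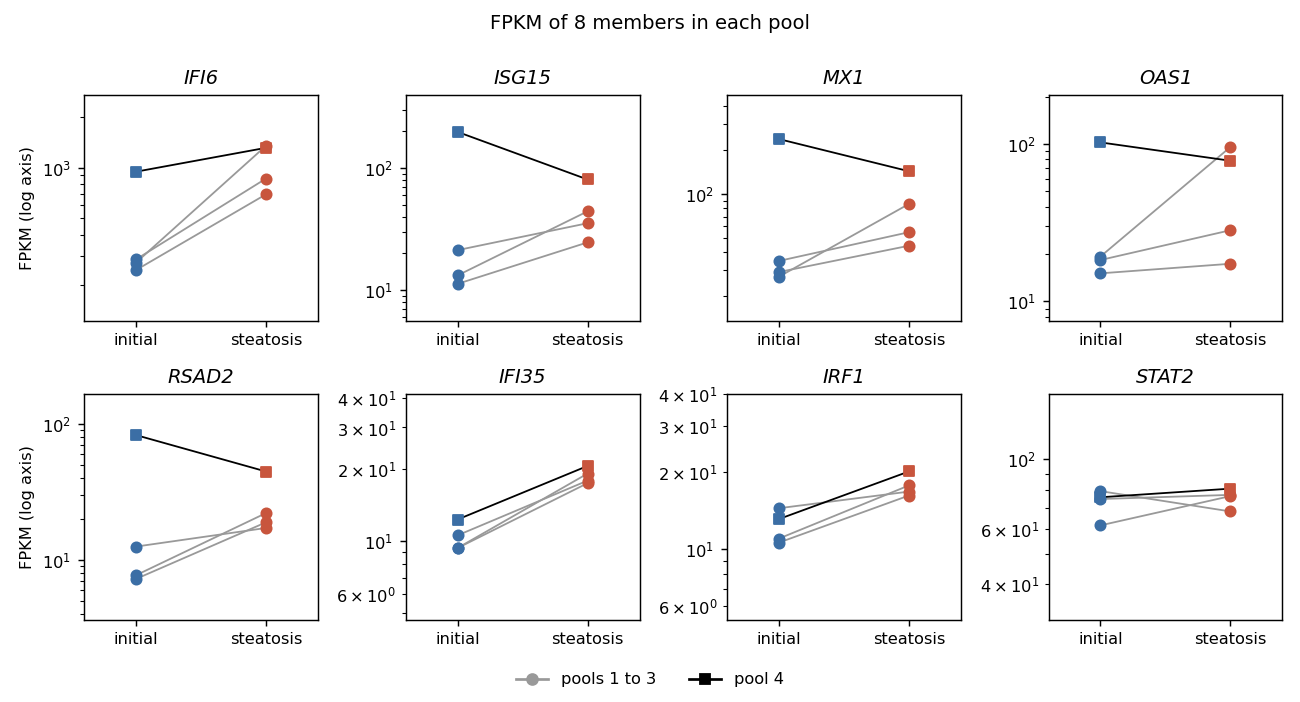
FPKM (log axis) of 8 members in each library, with a line joining pools of the same number and squares for pool 4. For ISG15, MX1, OAS1 and RSAD2 the line of pool 4 goes down while those of pools 1 to 3 go up; for IFI6, IFI35 and IRF1 all 4 lines go up, and STAT2 stays between 61.6 and 80.7 FPKM.

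The 8 members that degrade RNA or block its translation ranged from -0.41 to 1.74 in log2 fold change, and 1 of them, ISG20, rose. ISG20 (chr1:191155853-191195601), an exonuclease that degrades RNA, had 1.71, 1.41, 4.65 and 11.5 FPKM in the initial state and 14.3, 8.38, 9.30 and 16.4 FPKM in steatosis. Initial pools 3 and 4 were both above pools 1 and 2, and only pool 4 overlapped with steatosis. Its log2 fold change of 1.74 (SE 0.57, adjusted p = 0.0443) was the largest among the members and became 2.32 (SE 0.40, adjusted p = 0.00462) without initial pool 4.

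The OAS enzymes make the 2′-5′ linked oligoadenylates that set off RNA decay. OAS2 (chr14:38827667-38847697) had 42.6, 58.6, 51.2 and 199 FPKM in the initial state, and in steatosis it had 82.5, 84.1, 77.8 and 132 FPKM. In each state pool 4 was far above 3 close values, and the difference was 0.37 (SE 0.42, adjusted p = 0.532). OAS1 (chr14:38851083-38867427) had 19.3, 18.3, 15.1 and 103 FPKM in the initial state and 95.9, 28.3, 17.3 and 78.4 FPKM in steatosis. Its steatosis pools split widely, with pools 1 and 4 near the level of initial pool 4 and pool 3 at the level of the other initial pools. The difference was 0.69 (SE 0.68, adjusted p = 0.472), and it did not pass the limit without initial pool 4 either (1.32, SE 0.55, adjusted p = 0.107).

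OASL (chr14:40900050-40917189), an OAS relative that enhances RIG-I signalling, was the member with the lowest level and the lowest fold change. It had 0.68, 0.75, 0.76 and 2.98 FPKM in the initial state and 0.54, 0.53, 0.78 and 1.49 FPKM in steatosis. Pools 1 to 3 had close values in both states, and the difference of -0.41 (SE 0.46, adjusted p = 0.532) became 0.06 (SE 0.32, adjusted p = 0.903) without initial pool 4. The IFIT proteins bind foreign RNA ends and block translation. IFIT1, IFIT2 and IFIT3 had log2 fold changes of 0.70, 0.42 and 0.90 (adjusted p = 0.351, 0.468 and 0.225), and IFIT1 and IFIT3 were called without initial pool 4. EIF2AK2, the kinase PKR that halts translation, had 0.53 (adjusted p = 0.122) and rose with the block (adjusted p = 0.0454). The row described as IFIT5 (LOC100151816, chr14:101254818-101266105) had 10.1, 10.8, 10.1 and 23.2 FPKM in the initial state and 14.1, 15.5, 14.5 and 16.0 FPKM in steatosis. It had the same high initial pool 4, with a difference of 0.25 (SE 0.24, adjusted p = 0.465) and of 0.54 (SE 0.09, adjusted p = 0.0032) without that pool.

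Among the 5 members that act on virus entry, assembly or nucleotides, MX2 rose. The Mx proteins are GTPases that trap viral nucleocapsids. MX2 (chr13:204798633-204821612) had 7.85, 6.98, 7.65 and 15.4 FPKM in the initial state, and in steatosis it had 12.5, 16.1, 15.9 and 17.8 FPKM. Initial pool 4 lay within the steatosis range and the others below it, and the rise was 0.78 (SE 0.23, adjusted p = 0.0332). MX1 (chr13:204843049-204868927) had 27.2, 34.8, 29.2 and 237 FPKM in the initial state and 85.4, 54.7, 44.2 and 143 FPKM in steatosis. The group means were nearly equal, 82.1 FPKM (SD 103, n = 4) and 81.8 FPKM (SD 44.3, n = 4), with initial pool 4 at 6.81 times the next initial pool. This gave a fold change of 0.54 on the log2 scale (SE 0.66, adjusted p = 0.56), which was 1.28 (SE 0.36, adjusted p = 0.0307) without initial pool 4.

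RSAD2 (chr3:128880853-128897809) encodes viperin, which makes a chain-terminating nucleotide from CTP, and its neighbour CMPK2 is a nucleotide kinase. RSAD2 had 7.72, 7.25, 12.5 and 82.9 FPKM in the initial state and 22.1, 18.9, 17.2 and 44.7 FPKM in steatosis. As for MX1, the steatosis pools were all above initial pools 1 to 3 and below initial pool 4. The difference was 0.61 (SE 0.69, adjusted p = 0.53), and 1.41 (SE 0.33, adjusted p = 0.0168) without that pool. CMPK2 and BST2, which encodes tetherin, the protein that holds budding virions at the cell surface, had 0.54 and 0.71 (adjusted p = 0.419 and 0.119). BST2 rose with the block (adjusted p = 0.0353), and without initial pool 4 it was called and CMPK2 rose.

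PARP9 and DTX3L form a complex that modifies histones and viral proteins, and PARP14 is an ADP-ribosyltransferase encoded beside them. PARP14 (chr13:137809499-137865383) had 2.90, 4.43, 5.29 and 11.5 FPKM in the initial state and 9.79, 10.4, 10.1 and 14.2 FPKM in steatosis. It rose by 1.04 (SE 0.34, adjusted p = 0.0464), and only initial pool 4 overlapped with steatosis. PARP9 (chr13:137960987-138000862) had 4.42, 5.88, 6.37 and 16.7 FPKM in the initial state and 13.7, 9.97, 11.5 and 19.8 FPKM in steatosis. Again initial pool 4 alone was in the range of steatosis, and the difference of 0.86 (SE 0.37, adjusted p = 0.108) passed with the block (adjusted p = 0.0196). DTX3L had 0.74 (adjusted p = 0.104) and rose with the block (adjusted p = 0.0227). All 3 genes were called without initial pool 4.

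The remaining 6 members include the most abundant one. IFI6 (chr6:84852782-84858072), a mitochondrial and endoplasmic reticulum protein that restrains cell death and viral replication, had 273, 286, 247 and 948 FPKM in the initial state, and in steatosis it had 1351, 863, 695 and 1314 FPKM. Initial pools 1 to 3 lay far below every steatosis pool, and initial pool 4 lay between steatosis pools 2 and 4. IFI6 rose by 1.47 (SE 0.41, adjusted p = 0.0247), and it was called with the pool number as a block (adjusted p = 0.00611) and without initial pool 4 (1.92, SE 0.23, adjusted p = 0.00106). Its adjusted p was above 0.05 without initial pool 1, 2 or 3 or steatosis pool 1 or 4, reaching 0.0673.

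IFI35 (chr12:19879386-19890330), a leucine zipper protein that partners with NMI, had 9.36, 9.36, 10.6 and 12.3 FPKM in the initial state and 19.2, 17.5, 17.95 and 20.7 FPKM in steatosis. The groups did not overlap, initial pool 4 was 1.17 times the next initial pool, and the rise of 0.86 (SE 0.11) had the smallest adjusted p of the members, 0.000716. It fell short of a call only by its size, and it was the member that also rose with either scaling (adjusted p = 0.0200 by the median ratio and 0.0107 by the upper quartile). XAF1 (chr12:50644783-50659807), which opposes the apoptosis inhibitor XIAP, had 40.1, 60.4, 63.2 and 78.5 FPKM in the initial state and 53.6, 51.2, 44.6 and 58.8 FPKM in steatosis. It was the other member besides OASL with a value below 0, -0.18 (SE 0.18, adjusted p = 0.473), with overlapping groups. IFI44, IFI44L and EPSTI1 had 0.84, 0.65 and 0.66 (adjusted p = 0.169, 0.139 and 0.21). IFI44 and EPSTI1 were called without initial pool 4, and IFI44L rose without it and with the block (adjusted p = 0.027).

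When the comparison was made within pool numbers, steatosis was above the initial state for 35, 34 and 34 of the 36 members in pools 1, 2 and 3 and for 14 in pool 4. Over all genes the shares were 72%, 65.9%, 69.9% and 81.8%. The median log2 ratio of the members was 1.15, 0.68, 0.74 and -0.15 in pools 1 to 4, beside 0.27, 0.16, 0.17 and 0.44 for all genes. In pool 4 the members thus lay below the other genes, and in pools 1 to 3 above them. These ratios compare single pairs of libraries. The paper does not state that a pool number stands for the same 2 pigs in both states.

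**Figure D4:**
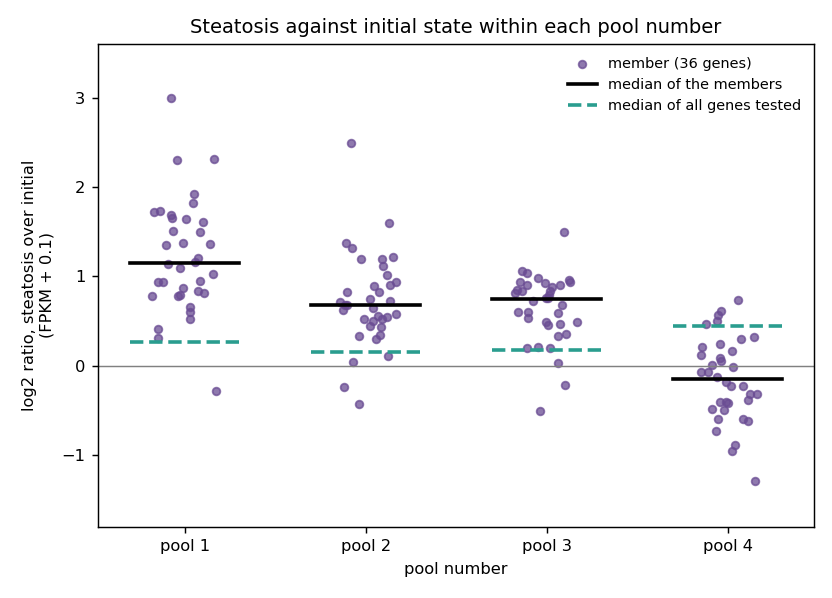
Log2 ratio of steatosis over the initial state, log2(FPKM + 0.1), for each member within pools 1 to 4, with the members' median (solid line) and that of all genes tested (dashed line). The members' medians of 1.15, 0.68 and 0.74 lie above the dashed line in pools 1 to 3, and that of -0.15 lies below it in pool 4.

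Without initial pool 4 the groups did not overlap, with steatosis higher, for 31 of the 36 members, where this held for 31.9% of all genes. The members differed in how far initial pool 4 was from the next initial pool, from 9.26 times for ISG15, 6.81 for MX1, 6.61 for RSAD2, 5.51 for IFIT1 and 5.32 for OAS1 down to 0.780 for TRIM25, 0.908 for IRF1 and 0.956 for STAT2. By role, the median of this ratio was 4.11 for the effectors on virus entry, assembly and nucleotides, 3.65 for RNA decay and translation, 3.34 for sensing, 3.02 for ISG15 conjugation, 2.55 for the other induced genes, 2.48 for the PARP9 complex and 1.23 for the signalling and transcription factors.

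Of the 36 members, 16 stand within 100 kb of another on the Sscrofa11.1 assembly, in 9 neighbouring pairs. These are families, functional partners or both: MX2 and MX1, OAS2 and OAS1, RSAD2 and CMPK2, IFI44 and IFI44L, HERC5 and HERC6, IFIT2, IFIT3 and IFIT1, and PARP14, DTX3L and PARP9. Neighbours differed in how far initial pool 4 stood apart: initial pool 4 was 6.81 times the next initial pool for MX1 and 1.96 times for MX2. DTX3L and PARP9 overlap by their annotated ends, so reads from the shared stretch cannot be assigned to one of them with certainty. For relatives such as the IFIT genes or OAS1 and OAS2, estimates may likewise share reads.

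Interferon transcripts themselves were scarce. The table holds 30 interferon genes, and none passed the limit on low values. The highest value of any of them was 0.6 FPKM, for IFN-DELTA-2 in steatosis pool 3. IFNG, the type II interferon, was at 0.42, 0.08, 0.41 and 0.23 FPKM in the initial state and at 0.08, 0.24, 0.16 and 0.08 FPKM in steatosis. Initial pool 4 was not the highest for IFNG or for most of the other interferon genes. It was the highest initial pool for a few type I genes, among them IFN-OMEGA-7 (0.39 FPKM) and IFN-OMEGA-6 (0.20 FPKM). At such low values these ranks carry little weight. Many of these genes are near-identical copies that may share reads. IFNB1, IFNL1 and IFNL3 were not found by symbol.

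Of 39 listed genes upstream of the members, 30 were tested. Of these, 3 were called higher, 20 rose and 1 fell, and the median log2 fold change was 0.67, against the shares of 6.01% called higher and 26.7% rising among all genes. With scaling by the median ratio, 13 rose (11.7% of all genes) and 1 fell (9.78%). Among the receptors 5 of 6 rose. IFNAR1 (chr13:196925731-196951398) had 6.29, 7.54, 7.98 and 5.75 FPKM in the initial state and 10.1, 14.3, 14.0 and 11.5 FPKM in steatosis, a rise of 0.85 (SE 0.15, adjusted p = 0.00302). IFNAR2 (chr13:196765915-196852640) had 4.87, 5.44, 5.95 and 5.58 FPKM and 8.82, 10.02, 9.48 and 9.13 FPKM, a rise of 0.77 (SE 0.10, adjusted p = 0.000658). Neither gene overlapped between groups or was highest in initial pool 4, and both rose with scaling by the median ratio too (adjusted p = 0.0147 and 0.0102). Initial pool 4 was the highest initial pool for 8 of these 30 genes and for 12.3% of all genes.

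Of the 8 kinases and factors 4 rose, TYK2, IRF3, IRF5 and IRF8, where 26.7% of all genes rose. With scaling by the median ratio 3 of the 8 rose, against 11.7% of all genes. JAK1 had 0.10 (SE 0.11, adjusted p = 0.524).

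The inhibitors differed in direction. SOCS1, which blocks the receptor kinases, had 17.6, 11.96, 13.1 and 9.12 FPKM in the initial state and 6.53, 7.38, 8.50 and 7.64 FPKM in steatosis. All steatosis pools were below all initial pools, and initial pool 4 was the lowest of its group. SOCS1 fell by 0.74 (SE 0.18, adjusted p = 0.0143). SOCS3 had -0.50 (SE 0.42, adjusted p = 0.386). PTPN6 went the other way, with 7.04 to 11.45 FPKM in the initial pools and 17.1 to 19.0 FPKM in the steatosis pools. PTPN6 rose by 0.89 (SE 0.14, adjusted p = 0.00198), and PIAS1 had 0.34 (SE 0.12, adjusted p = 0.0528). Of the 12 sensors and adaptors tested 10 rose, and 3 were called: the nucleic acid receptors TLR8 (1.31, SE 0.19, adjusted p = 0.00113) and TLR9 (1.73, SE 0.24, adjusted p = 0.000786) and the kinase IKBKE (1.47, SE 0.19, adjusted p = 0.000658). Their levels were low: TLR9 had 0.290 to 0.390 FPKM in the initial pools and 0.850 to 1.77 FPKM in the steatosis pools. Of all genes 26.7% rose and 6.01% were called higher. With scaling by the median ratio 6 of the 12 sensors and adaptors rose, against 11.7% of all genes.

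**Figure D5:**
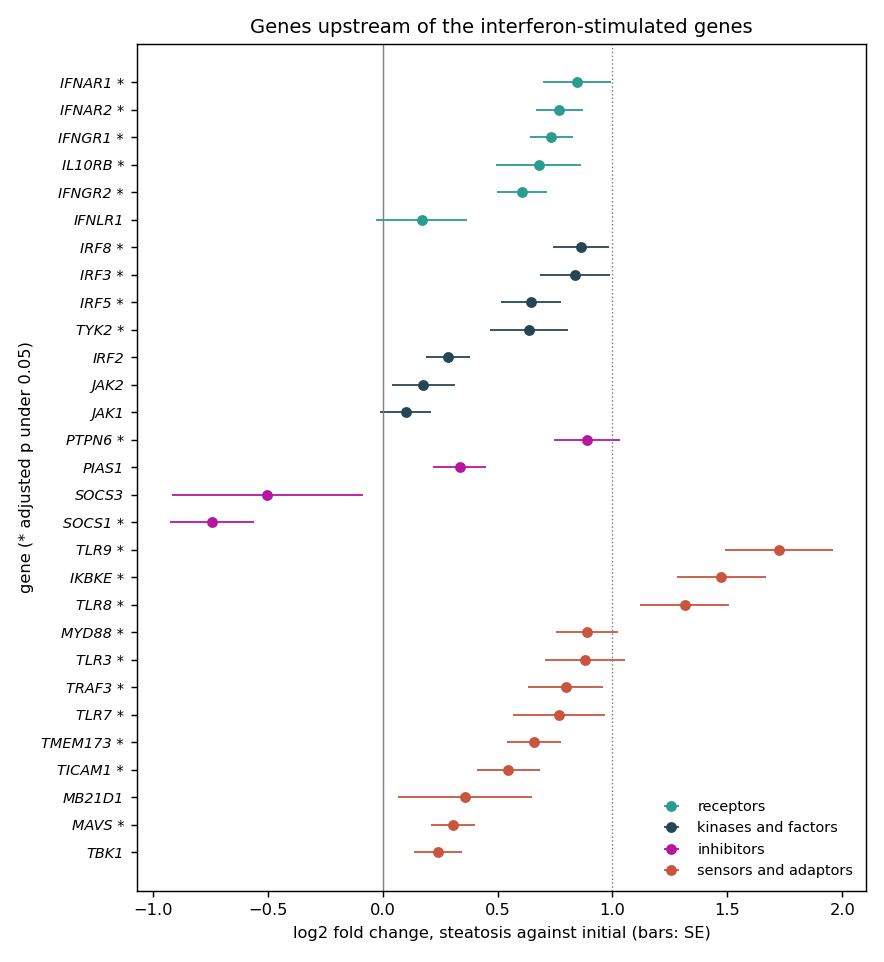
Log2 fold change in steatosis against the initial state (bars, SE) for tested genes upstream of the members, coloured by class, with a star for an adjusted p under 0.05. Of the receptors 5 of 6 and of the sensors and adaptors 10 of 12 carry a star above 0, and SOCS1 is the starred gene below 0.

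A further list of 53 interferon-stimulated genes outside the members gave 43 tested rows. Of these, 3 were called higher, 22 rose and none fell, with a median of 0.61, where 6.01% of all genes were called higher and 26.7% rose. Without initial pool 4, 13 were called (5.42% of all genes) and 32 rose (23.7%), with a median of 0.81. With scaling by the median ratio, 5 rose (11.7% of all genes) and 1 fell (9.78%), and with the pool number as a block 5 were called (5.96%) and 34 rose (25.7%). Initial pool 4 was the highest initial pool for 31 of the 43, against 12.3% of all genes. The called genes were IFI30, a lysosomal thiol reductase of antigen processing (1.69, SE 0.15, adjusted p = 7.25e-05), TRIM14, an adaptor of antiviral signalling (1.12, SE 0.14, adjusted p = 0.000456), and 1 of 2 rows named B2M, the light chain of MHC class I (1.08, SE 0.20, adjusted p = 0.00345). The rows named B2M may share reads. CXCL10, a chemokine that attracts T cells, had 26.0, 58.2, 60.4 and 177 FPKM in the initial state and 190.4, 143, 130 and 346 FPKM in steatosis, and rose by 1.56 (SE 0.51, adjusted p = 0.0456). The row ISG12(A) had 1.43 (SE 0.50, adjusted p = 0.0571). At the other end, LAP3, PML and SP110 had -0.18, 0.07 and 0.07 (adjusted p = 0.112, 0.807 and 0.696).

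Markers of some cell types differed between the groups and those of others mostly did not, and their part in the members' levels was not tested. The counts stand beside 26.7% of all genes that rose, 6.01% called higher and 2.28% that fell. Of 12 macrophage markers 9 rose and 4 were called, and their summed level was 882 to 1222 FPKM in the initial state, with the highest value in pool 4, and 1874 to 2423 FPKM in steatosis. TREM2, among those called, passed the limit on low values through the steatosis pools alone, so its direction was set by that limit. CD5L went the other way, at -0.34 (SE 0.13, adjusted p = 0.0709), with every steatosis pool below every initial pool. With scaling by the median ratio 6 of the 12 macrophage markers rose (11.7% of all genes) and 1, CD5L, fell (9.78%). Of 5 genes found from a plasmacytoid dendritic cell list 3 rose (TCF4, TLR7 and TLR9), but IRF7, which is also a member, made up most of their sum of 16.2 to 45.3 FPKM in the initial state and 24.2 to 39.7 FPKM in steatosis, and the defining markers CLEC4C, LILRA4 and IL3RA were not found by symbol. For T and NK cells 2 of 11 markers rose, NKG7 and KLRB1, with sums of 37.0 to 63.2 FPKM (50.6 in initial pool 4) and 71.7 to 79.8 FPKM. NKG7 alone had 11.2 to 15.1 FPKM in the initial state and 31.4 to 38.0 FPKM in steatosis. The groups overlapped for every other T and NK cell marker, among them CD2, CD3D, CD3E, CD3G, CD8A and CD8B. For B and plasma cells 3 of 6 fell, with sums of 20.7 to 54.0 and 15.6 to 21.1 FPKM. For neutrophils 1 of 5 rose, with sums of 5.77 to 12.2 FPKM, lowest in initial pool 4, and 9.06 to 14.4 FPKM. Of 7 rows for hepatocyte markers 3 rose, and their sum was 57555 to 90441 FPKM, highest in initial pool 4, and 52276 to 65399 FPKM in steatosis. Red blood cell markers neither rose nor fell in 4 tested, with sums of 263.5 (initial pool 4) to 1303 FPKM and 138 to 431 FPKM. Skeletal muscle markers summed to 2589 FPKM in initial pool 1 and to 18.97 FPKM in initial pool 4, and ACTA1, the muscle actin and the single one tested, fell. ACTA1 passed the limit on low values through the initial pools alone, so its direction was set by that limit. Without initial pools 1 and 4, 6 members were called (4.68% of all genes) and 25 rose (18.7%), with a median of 0.99.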

How the data were processed

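Poly-A RNA of 8 pools (each of 2 pigs, 4 per group) was sequenced in paired ends on a DNBseq instrument. The authors mapped reads with HISAT2 2.0.4 to Sus scrofa 11.1, added new transcripts from StringTie, and estimated expression with Bowtie2 2.2.5 and RSEM 1.2.12. They deposited FPKM values, which were used as deposited (sums of 511863 to 545731 per library). Read numbers per library were not used, and the spread between pools stands for the precision. The deposited comparisons of single pools (fold changes and FDR by a Poisson method) were not used.

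Of all genes, 13175 reached 0.3 FPKM in 4 or more libraries. For these a linear model with 1 term, the group, was fitted to log2(FPKM + 0.1) by limma 3.58.1 (R 4.3.3), letting the prior variance follow the mean level, and p values were adjusted by Benjamini and Hochberg over all of them. The call limits are those of the study. Symbols come from the file, and positions from RefSeq's Sscrofa11.1 by gene ID, for all 36 members. Promoter and protein sequences were not analysed here. Tables and figures used Python 3.11.15, pandas 2.3.3, numpy 2.4.6 and matplotlib 3.10.9. Tested on simulated data for initial against steatosis over 13175 genes, the fit found 191 of 200 changed genes (95.5%) with the right sign and 1 unchanged gene. Every change planted was larger than the largest fold change of a member with all libraries, and no pool was made to stand apart. Recovery at fold changes like those of the members was therefore not tested.

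The members and lists were chosen with earlier results of these data known. Members named with the value of every library are those called, those with an adjusted p under 0.05, the 2 of each role with the highest mean FPKM, those with the largest and lowest fold change, ISG15 and the 4 transcription factors. Of the other lists, those called, the 3 largest and 3 lowest, IFNAR1 and IFNAR2 are named, a few genes are not reported here, and any other gene was named with its values in view.

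The labels number the pools 1 to 4 in both groups, and the paper states that the animals are the same, but not that a number stands for the same animals. Deviations from the group means correlated at 0.16, 0.35, 0.32 and 0.25 between pools of the same number, all above 0.1, so the numbers were taken as pairs and the block was fitted as an alternative. The other alternatives were a second limit on p, other scalings, filters and pseudocount, and libraries left out. Leaving out initial pool 4 with scaling by the median ratio, pool 4 of both groups with the block, and initial pools 1 and 4 was chosen after seeing the data.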

Additional observations from a re-analysis of the deposited data

Results flagged for a closer look

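A library was singled out where it stood so far from the other 3 pools of its group that the gap passed Dixon's 95% limit for 4 values, which chance passes in about 1 of 20 groups. In the initial state this was pool 4 for 26 of the 36 members, each time as the highest value, and in steatosis it was pool 4 for 4 of the 36. The share of all genes for which these libraries stood apart was not taken. Among the members named with all their values, initial pool 4 stood apart for ISG15 (197.28 FPKM), IFI6 (947.63), MX1 (237.16), MX2 (15.41), OAS1 (102.52), OAS2 (198.61), OASL (2.98), RSAD2 (82.93), DDX58 (46.86), HERC6 (17.95), IRF7 (38.46), IRF9 (19.94) and PARP9 (16.73). Steatosis pool 4 stood apart for OAS2 (131.91 FPKM), DDX58 (31.01) and PARP14 (14.21). The members share their libraries, so these are not separate events. Pool 4 of both groups was also already known for high levels of these genes when the members were chosen, so the counts describe these libraries and are no independent support.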

How the results depend on the processing

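No member was called higher with all libraries. The number of members called was 7 at an adjusted p under 0.05 without a limit on the fold, 1 with the pool number as a block, 6 without pool 4 of both groups, 3 with that and the block, 6 without initial pools 1 and 4, and 4 with scaling by the median ratio without initial pool 4. Leaving out single libraries gave 0 to 13, the highest without initial pool 4. Of all genes, 6.01% were called higher with all libraries, 26.7% were higher at an adjusted p under 0.05, and 5.96% were called with the block. Without pool 4 of both groups 4.1% were called higher, 3.64% with the block as well, and 4.68% without initial pools 1 and 4. Scaling by the median ratio gave 3.12%, or 3.06% without initial pool 4, and the upper quartile gave 3.33%. Single libraries left out gave 4.74% to 5.91%. No member was called lower in any comparison. The members' median log2 fold change lay between 0.32 (scaling by the median ratio) and 1.05 (without initial pool 4).

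Of the upstream genes, 3 were called higher. This became 20 with the wider limit and 0 with a pseudocount of 1, a value that shrinks the fold of low genes such as TLR9. None was called lower, against 1 with the wider limit and 1 with scaling by the median ratio, with or without initial pool 4. Of the further interferon-stimulated genes, 3 were called higher. This became 22 with the wider limit, 5 with the block, 10 without pool 4 of both groups, 10 with that and the block, 9 without initial pools 1 and 4, 1 with scaling by the median ratio or the upper quartile, and 7 by the median ratio without initial pool 4. Leaving out single libraries gave 2 to 13. The shares of all genes given above for each setting stand beside these counts too. No such share was taken for the pseudocount of 1 or for the lower calls with scaling by the median ratio, so those shifts cannot be set against it.

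Among the members named with all their values, the sign changed for OASL, to 0.064 without initial pool 4 and 0.020 without initial pools 1 and 4. It changed for STAT2, to -0.22 and -0.18 with scaling by the median ratio and the upper quartile, -0.14 by the median ratio without initial pool 4, -0.028 without initial pools 1 and 4 and -0.021 without initial pool 1. With single libraries left out, the range was -0.70 to 0.064 for OASL and -0.021 to 0.11 for STAT2. Outside those members, UBA7 changed from 0.25 to -0.016 with scaling by the median ratio. For these sign changes and for the shifts in counts above, the cause was not tested. For the named members, 356 of the values under an alternative kept direction and side of the call limits (321 above 0 and 35 below), 16 passed the limits only under the alternative, and 7 changed sign. The pool block changed no other call of a member than those given in the report. The promoter motif that was planned was not run. Precision was limited by 4 pools per group, with standard errors of the members from 0.10 to 0.80 on the log2 scale.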
